A study of Homo sapiens with 6 samples.

Results

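Antisense long noncoding RNAs (lncRNAs) are named after the gene on the other strand, as in PDK1-AS1, and 685 of them were followed here through iron chelation in K562 cells, an erythroid leukemia cell line. They were selected by name and by depth: GENCODE v44 lists 1814 lncRNA genes with "-AS" and a number in the name, and the members are those with more than 60 estimated counts summed over the 6 libraries. The total that chose them was 60.4 for PRRT3-AS1 and 61 for LAMA5-AS1 just inside, and 60 for CXXC5-AS1 and 59.9 for EDRF1-AS1 just outside. Of the 1814, 563 had no count in any library. The members are part of 26074 genes with a total above 10, of which 24542 received an adjusted p.

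The cells were unmodified K562 cells grown overnight with 10 µM 21H7, a cell-permeable iron chelator (the Chelator group), or with a matched volume of DMSO, with 3 libraries in each group. PolyA RNA was sequenced from both ends for 150 cycles. The series design calls the 3 libraries of a group biological replicates, and p-values measure the spread between these libraries. Transcripts without a polyA tail were not captured, and in these bulk libraries fewer cells of a kind and less RNA per cell cannot be told apart.

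An antisense lncRNA is transcribed from the DNA strand opposite to a gene, called the sense gene here. Many start near the start of the sense gene and run away from it, from a promoter region that fires in both directions, while others start inside the gene or beyond its end and run toward it. Some are known to act on the chromatin, splicing or translation of the sense gene, and for many no function is known. Iron chelation inactivates the prolyl hydroxylases that mark HIF1A for destruction, so it turns on hypoxia genes, and several of those have an antisense partner.

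The libraries held 78.6 M to 90.4 M estimated counts with DMSO and 85.5 M to 101.1 M with Chelator (M, 1000000). The members together took 0.263% to 0.288% of the counts with DMSO and 0.287% to 0.306% with Chelator. Transcripts annotated as retaining an intron took 3.89% to 4.01% with DMSO and 4.58% to 5.14% with Chelator, and the part of this shift in the results below was not tested. HBG1, a fetal globin that marks erythroid cells, was at 3660 to 4890 TPM (transcripts per 1000000), and MS4A1, a B cell marker, was at 0 TPM. The strand setting of the libraries is not given in the sources used here. Where exons of both strands overlap, reads of an antisense RNA and its sense gene cannot be told apart without it, so the share of a member's exon bases that lie in exons of the other strand was computed. Among the members described with values below it was 100% in CHMP1B-AS1 and GJD3-AS1, 97.2% in PHLDA1-AS1, 89.2% in SAPCD1-AS1, 68.5% in CAMTA2-AS1, 57.1% in ZNF337-AS1, 56.6% in VASH1-AS1 and 56.2% in SREBF2-AS1. It was 49.9% in IER3-AS1, 46.7% in BCAN-AS2, 45.4% in LMNTD2-AS1, 35.2% in TNFRSF10A-AS1, 31.4% in IL6-AS1, 31.1% in RUSC1-AS1, 30.1% in HOXB-AS3 and 30% in L3MBTL2-AS1, and under 30% in the others.

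The start regions of 6 members whose level changed are shown first, because each lies at an annotated transcript start of an RNA described below, which need not be the outermost start of the gene: DLGAP1-AS1 and DLGAP1-AS2, which rose together inside 1 gene, L3MBTL2-AS1 and SLC38A4-AS1, which had log2 fold changes above 2, and CAVIN2-AS1 and TRG-AS1, which fell. RefSeq sequences (GRCh38.p14) run from 250 bases before to 50 after the start, 5′ to 3′ on the strand of the antisense gene. By symbol 503 members matched a window, and in 476 it lay within 500 bases of an annotated start of the member. Windows that overlap an untranslated region were not printed. They lie at chr18:3593864-3594163 (plus strand), chr18:3603487-3603786 (plus), chr22:41217578-41217877 (minus), chr12:46383857-46384156 (plus), chr2:191846238-191846537 (plus) and chr7:38341171-38341470 (plus). The CAVIN2-AS1 window overlaps a coding exon of CAVIN2 on the other strand, and none of the other 5 overlaps a coding exon. Capitals mark the letters of 7 short motifs searched on both strands, chosen with results of these data known.
DLGAP1-AS1: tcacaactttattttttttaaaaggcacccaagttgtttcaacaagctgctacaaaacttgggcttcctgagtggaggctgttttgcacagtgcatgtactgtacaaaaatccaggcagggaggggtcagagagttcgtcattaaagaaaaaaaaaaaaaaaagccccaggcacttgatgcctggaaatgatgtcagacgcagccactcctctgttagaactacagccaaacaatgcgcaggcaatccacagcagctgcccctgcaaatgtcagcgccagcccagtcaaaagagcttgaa
DLGAP1-AS2: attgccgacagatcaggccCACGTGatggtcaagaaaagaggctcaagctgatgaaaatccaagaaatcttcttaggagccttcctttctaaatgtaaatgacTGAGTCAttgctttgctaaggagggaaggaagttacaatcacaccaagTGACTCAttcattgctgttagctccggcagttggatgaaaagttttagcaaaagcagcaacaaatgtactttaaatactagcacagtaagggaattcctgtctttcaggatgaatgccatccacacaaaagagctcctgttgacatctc
L3MBTL2-AS1: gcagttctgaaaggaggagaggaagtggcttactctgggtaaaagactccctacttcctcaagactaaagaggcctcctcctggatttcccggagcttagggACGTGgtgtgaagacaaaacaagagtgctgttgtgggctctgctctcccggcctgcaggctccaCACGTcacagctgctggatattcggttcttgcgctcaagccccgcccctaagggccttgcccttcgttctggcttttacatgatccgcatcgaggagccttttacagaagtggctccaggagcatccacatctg
SLC38A4-AS1: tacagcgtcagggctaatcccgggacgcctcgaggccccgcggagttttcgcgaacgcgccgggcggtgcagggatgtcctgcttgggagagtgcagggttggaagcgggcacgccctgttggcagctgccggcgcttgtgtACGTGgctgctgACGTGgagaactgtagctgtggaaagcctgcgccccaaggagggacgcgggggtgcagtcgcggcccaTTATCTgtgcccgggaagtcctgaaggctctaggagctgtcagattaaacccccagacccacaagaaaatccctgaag
CAVIN2-AS1: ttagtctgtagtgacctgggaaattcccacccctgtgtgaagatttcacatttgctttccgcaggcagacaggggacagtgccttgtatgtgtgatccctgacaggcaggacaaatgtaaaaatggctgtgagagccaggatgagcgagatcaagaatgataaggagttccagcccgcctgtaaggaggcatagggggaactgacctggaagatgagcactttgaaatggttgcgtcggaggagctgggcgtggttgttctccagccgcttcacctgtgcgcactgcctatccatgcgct
TRG-AS1: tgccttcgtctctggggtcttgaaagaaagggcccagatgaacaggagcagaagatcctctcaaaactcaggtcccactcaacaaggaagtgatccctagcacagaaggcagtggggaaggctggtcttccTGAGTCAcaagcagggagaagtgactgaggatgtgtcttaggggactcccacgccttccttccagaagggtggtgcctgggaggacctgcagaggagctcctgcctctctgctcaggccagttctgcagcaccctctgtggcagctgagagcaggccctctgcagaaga

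The motifs were ACGTG, the core that hypoxia-inducible factors bind, CACGTG, the E box that contains it, TGANTCA of AP-1, TGACGTCA of cAMP-response factors, GCGTGGGCG of EGR factors, AGATAA of GATA factors and TGATGCAA, an ATF4-type site. The 2 DLGAP1 antisense windows differ: that of DLGAP1-AS2 holds an E box, which reads ACGTG on both strands, and 2 AP-1 matches, and that of DLGAP1-AS1 holds none of the 7 motifs. L3MBTL2-AS1 and SLC38A4-AS1 each hold 2 matches of ACGTG, and TRG-AS1, which fell, holds 1 AP-1 match. SLC38A4-AS1 also holds 1 match of AGATAA, which reads TTATCT on the printed strand. ACGTG was in 25.6% of the 476 member windows, 13 of the 43 windows of members called higher (30.2%) and 2 of the 8 of members called lower, against 21.4% of 34796 distinct RefSeq promoter windows. TGANTCA was in 6.09% of member windows and in 4 of the 43 called higher and 2 of the 8 called lower, against 7.73% of all windows. The other shares, in members and in all windows, were 7.77% and 7.20% for CACGTG, 3.15% and 1.84% for TGACGTCA, 1.05% and 0.793% for GCGTGGGCG, 7.56% and 10.4% for AGATAA, and 0 and 0.871% for TGATGCAA. A match describes letters in a window and is no measured binding.

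Antisense RNAs were scarce next to their sense genes. Compared per length, the median member had 1.07 TPM (quartiles 0.363 and 3.06), and the median sense gene 12 TPM. Still, 192 members had a higher TPM than their sense gene, and 54 members passed 10 TPM. By mean normalized count the median member stood at 77, against 177 for all genes with an adjusted p, so the spread of counts weighs more on the members. The highest was TMEM132D-AS1 at 123 TPM, inside TMEM132D, a gene that was itself at 0.00389 TPM. B3GALT1-AS1 followed at 89.5 TPM, OIP5-AS1 (also called cyrano) at 87.1, BCAN-AS2 at 73.9 and PROSER2-AS1 at 59.9.

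Among these abundant RNAs, TMEM132D-AS1 and BCAN-AS2 rose and the others showed small or no differences. TMEM132D-AS1 was at 2487, 1720 and 1913 normalized counts with DMSO and 3496, 3571 and 3568 with Chelator (log2 fold change 0.80 with a standard error, SE, written 0.80 ± 0.12; DESeq2 adjusted p = 7.9e-10). BCAN-AS2 was at 3361, 3348 and 3078 against 4815, 4252 and 4146 (log2 fold change 0.43 ± 0.09, adjusted p = 5.47e-06). The groups do not overlap for either RNA, and neither change passed the fold limit of 1 on the log2 scale. B3GALT1-AS1 (0.06 ± 0.10, adjusted p = 0.669) and PROSER2-AS1 (-0.06 ± 0.09, adjusted p = 0.657) did not pass the test. OIP5-AS1 stood at 0.22 ± 0.08 with an adjusted p of 0.0233, but at -0.20 without correction for the lengths of its transcripts and at -0.27 with only transcripts little shared with other genes, so it has no settled direction. Its adjusted p was also above 0.05 without DMSO replicate 1 or 2 or Chelator replicate 2 or 3 (adjusted p = 0.0724 to 0.0831).

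More antisense RNAs were called higher than lower after chelation, at shares near those of all genes. A gene was called when DESeq2's adjusted p was under 0.05 and its log2 fold change was beyond 1 in either direction, the limits of the study. Of the 685 members 78 were called, or 11.4%, against 10.8% of all 24542 genes tested and 11.2% of 4042 other lncRNA genes with a total above 60. Higher were 62 members (9.05%, against 8.18% of all genes) and lower 16 (2.34%, against 2.60%). Without the fold limit 121 members were higher (17.7%, against 19.5%) and 51 lower (7.45%, against 18.3%), and 513 did not pass. The median log2 fold change of the members was 0.11, that of all genes 0.02 and that of the other lncRNA genes 0.05.

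Those shares depend on where 0 is set. With size factors centred on the mean change of all genes, which moves the median gene by -0.16, 38 members were called higher and 30 lower, against 6.56% and 4.19% of all genes under the same centring, so the higher share of calls went from 79.5% to 55.9%. A total above 60 can also be reached in 1 group alone: 49 members had a total of 30 or less in one of the groups, 41 of them in DMSO and 8 in Chelator. Of these 9 were called higher and none lower, which leaves 53 of the 62.

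The 58 members called higher that had counts in DMSO ran from a log2 fold change of 1.01 to 3.32, with a median of 1.43. The highest was RDH10-AS1, chosen after its values were seen, which has a mean under 50 normalized counts. The 16 called lower ran from -2.07 to -1.01, with a median of -1.31. In 75 of the 78 the groups' values do not overlap. That was so for 267 of all 685 members (39.0%), against 49.2% of all genes tested, and 3 called members overlap between groups.

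The clearest rises with counts in both groups came from 2 antisense genes inside DLGAP1, which encodes a postsynaptic scaffold protein. DLGAP1-AS1 (chr18:3593732-3598363, plus strand, GRCh38) was at 83.2, 83.5 and 106 normalized counts with DMSO and 610, 519 and 491 with Chelator. DLGAP1-AS2, chosen after its values were seen, is annotated further along the same strand at chr18:3603000-3610103. It was at 1306, 1080 and 1320 with DMSO and 4069, 3684 and 3799 with Chelator. Every Chelator value is above every DMSO value for both, with log2 fold changes of 2.57 ± 0.19 (DESeq2 adjusted p = 1.08e-39) and 1.64 ± 0.10 (adjusted p = 1.8e-57). DLGAP1 itself had a mean under 20 normalized counts and did not pass the test (adjusted p = 0.991). None of the exon bases of either RNA lies in exons of the other strand. The transcript DLGAP1-AS1-209 was listed at 0 in all DMSO libraries and at 50.3, 79.2 and 116 estimated counts with Chelator.

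Rises at genes that hypoxia turns on made the second set. PDK1-AS1, opposite the kinase that shuts pyruvate dehydrogenase, was at 18.0, 38.0 and 50.5 with DMSO and 140, 154 and 150 with Chelator (log2 fold change 2.13 ± 0.37, DESeq2 adjusted p = 9.62e-08). BHLHE40-AS1, opposite a repressor that follows hypoxia and the clock, was at 32.2, 25.5 and 14.6 against 108, 91.3 and 86.0 (1.98 ± 0.40, adjusted p = 5.12e-06). Neither group of values overlaps with the other. Both sense genes rose as well, PDK1 by 1.03 ± 0.09 and BHLHE40 by 2.48 ± 0.08, and the changes of the 2 strands were not shown to differ (ratio change 1.14 ± 0.40, limma adjusted p = 0.0939, and -0.45 ± 0.33, adjusted p = 0.378). With only transcripts little shared with other genes BHLHE40-AS1 was at 1.77 with an adjusted p of 0.0524.

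Not every antisense RNA of this group moved. A list of 36 hypoxia genes has 4 members opposite to them, of which those 2 were called higher, against 8.18% of all genes, and 2 did not pass the test. SLC16A1-AS1, opposite the lactate carrier MCT1, was at 1366, 1328 and 1606 with DMSO and 1403, 1341 and 1546 with Chelator. HIF1A-AS3, which reaches over the gene of the hypoxia factor itself, was at 300, 600 and 303 against 428, 488 and 372. The groups overlap for both, and the fitted log2 fold changes were -0.0024 ± 0.11 (adjusted p = 0.991) and 0.10 ± 0.25 (adjusted p = 0.806). The median of the 4 was 1.04, against 0.02 over all genes. HILPDA, hypoxia-inducible by its name, is not on the list, and HILPDA-AS1 (0.06 ± 0.65) did not pass the test.

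Further large rises at a mean of at least 50 were L3MBTL2-AS1, SLC38A4-AS1, CDC42EP3-AS1, ZNF528-AS1 and GAS6-AS1. L3MBTL2-AS1, opposite a Polycomb-group gene, was at 24.9, 29.5 and 34.1 with DMSO and 156, 129 and 204 with Chelator (log2 fold change 2.48 ± 0.33, DESeq2 adjusted p = 1.33e-12). SLC38A4-AS1, a neighbor of an amino acid carrier gene, was at 44.8, 25.2 and 22.3 against 242, 105 and 126 (2.35 ± 0.41, adjusted p = 5.93e-08). CDC42EP3-AS1, whose sense gene encodes an effector of the GTPase CDC42, was at 38.5, 23.7 and 41.4 against 213, 162 and 148 (2.34 ± 0.32, adjusted p = 7.64e-12). In these 3 the Chelator libraries lie at least 2 times above the highest DMSO library.

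GAS6-AS1 overlaps GAS6, a ligand of the TAM receptor kinases, and was at 17.5, 43.1 and 19.9 with DMSO and 92.7, 121 and 111 with Chelator (2.01 ± 0.41, DESeq2 adjusted p = 5.57e-06). ZNF528-AS1, which starts next to a zinc finger gene, was at 23.4, 18.8 and 17.4 against 86.5, 87.4 and 75.9 (2.07 ± 0.40, adjusted p = 1.44e-06). The groups are apart in both. The transcripts ZNF528-AS1-201 (42.7% of the gene in DMSO and 32.8% in Chelator) and ZNF528-AS1-203 (21.7% and 31%) are annotated as retaining an intron. RUSC1-AS1 and EPS15-AS1, singled out after their values were seen for their depth, rose from 517, 420 and 390 to 1375, 1439 and 1561 (1.72 ± 0.13, adjusted p = 3.01e-37) and from 146, 103 and 108 to 374, 363 and 364 (1.62 ± 0.20, adjusted p = 2.64e-14). The plot of counts by library shows 18 of these rises and the falls that follow.

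**Figure D1:**
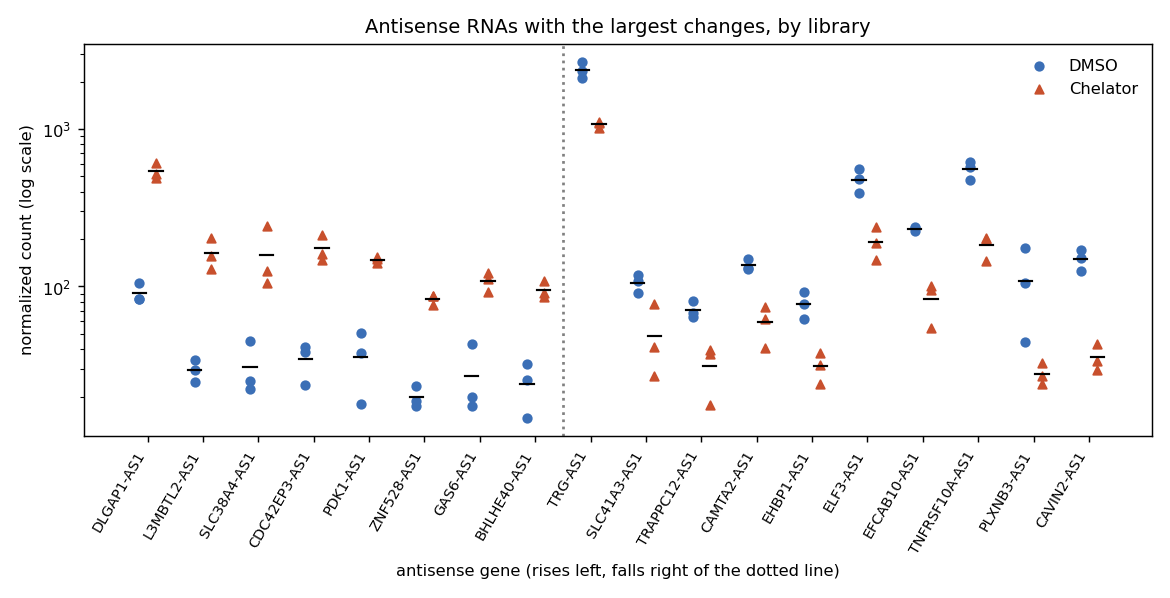
Normalized counts (log scale) of 18 antisense RNAs with the largest changes among called members with a mean of at least 50, counts in both groups and no overlap between groups, with 3 DMSO libraries as circles, 3 Chelator libraries as triangles and group means as bars. In each the 3 Chelator values lie on one side of the 3 DMSO values, from DLGAP1-AS1 (83.2 to 106 against 491 to 610) to CAVIN2-AS1 (125 to 171 against 29.5 to 43.3), but the values of PLXNB3-AS1 are length-corrected, its deposited counts did not fall and no fall is claimed for it.

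The largest called fall was at CAVIN2, whose protein coats caveolae. CAVIN2-AS1 was at 171, 151 and 125 normalized counts with DMSO and 29.5, 43.3 and 33.4 with Chelator, so the groups are far apart (log2 fold change -2.07 ± 0.32, DESeq2 adjusted p = 5.72e-10). CAVIN2 fell with it, from 7913, 7648 and 7527 to 2678, 2631 and 2791 (-1.51 ± 0.07, adjusted p = 8.95e-99), and the 2 changes were not shown to differ (ratio change -0.55 ± 0.25, limma adjusted p = 0.168). This was the only pair of the 16 members called lower in which the sense gene was called lower too.

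In 3 other large falls the sense gene did not pass the test, fell less or is not annotated. EFCAB10-AS1, inside a gene for an EF-hand protein, was at 236, 225 and 238 with DMSO and 94.7, 54.7 and 101 with Chelator (-1.49 ± 0.27, DESeq2 adjusted p = 1.71e-07), while EFCAB10 was at 463 to 528 and 480 to 623 (0.15 ± 0.15, adjusted p = 0.477). TNFRSF10A-AS1, at the gene of a TRAIL death receptor, fell from 474, 620 and 575 to 200, 145 and 204 (-1.61 ± 0.19, adjusted p = 4.84e-16), and TNFRSF10A fell less (-0.68 ± 0.08, ratio change -0.93 ± 0.19, limma adjusted p = 0.018). TRG-AS1 runs through the T cell receptor gamma locus, for which no sense gene of that name is annotated, and fell from 2103, 2675 and 2336 to 1022, 1094 and 1109 (-1.14 ± 0.11, adjusted p = 1.25e-23). No group overlaps the other in these 3.

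ELF3-AS1 (-1.31 ± 0.21), EHBP1-AS1 (-1.31 ± 0.39), CAMTA2-AS1 (-1.21 ± 0.31), TRAPPC12-AS1 (-1.17 ± 0.43) and SLC41A3-AS1 (-1.15 ± 0.40) complete the large falls, with DESeq2 adjusted p from 7.75e-09 to 0.0186. CAMTA2-AS1 has 68.5% of its exon bases in exons of the other strand. Without the length correction the falls of ELF3-AS1 (-0.84), CAMTA2-AS1 (-0.97) and SLC41A3-AS1 (-0.80) were under the fold limit. SLC41A3 rose where SLC41A3-AS1 fell (0.69 ± 0.12, adjusted p = 2.32e-07). TRAPPC12-AS1, in a gene of a vesicle tethering complex, lost its call without DMSO replicate 2 or 3 or Chelator replicate 2 (adjusted p = 0.0536 to 0.0922). SLC41A3-AS1, in a magnesium carrier gene, lost it without DMSO replicate 1 or 3 or Chelator replicate 2 or 3 (adjusted p = 0.0646 to 0.106).

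PLXNB3-AS1, at a semaphorin receptor gene, was called lower at -1.89 ± 0.46 (DESeq2 adjusted p = 0.000199), but its deposited counts did not fall. They were 45, 54 and 37 with DMSO and 49, 61 and 65 with Chelator. The length-corrected values were 44.6, 106 and 175 against 26.9, 32.7 and 24.1, and the transcript of 244 bases held 2, 6 and 11 counts with DMSO and 1, 2 and 0 with Chelator, the one of 914 bases the rest. The direction turned to 0.14 without the length correction (adjusted p = 0.801) and to 0.25 with only little-shared transcripts (adjusted p = 0.695), so no fall is claimed for this gene.

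Most members did not change with their sense gene past the fold limit. A sense gene is annotated for 675 members, protein coding for 668. Of the 62 members called higher, 12 had a sense gene called higher, 2 had one called lower and 42 had one not called, and 6 had none with an adjusted p. The other way round, 627 members had a sense gene with an adjusted p, which was called higher for 50 and lower for 17. Of those 50 members, 12 were called higher, 1 lower and 37 not called, against 9.05% higher and 2.34% lower of all members. Of the 17, 2 were called higher, 1 lower and 14 not called. A joint rise was thus a larger share of the 50 than rises were of all members. The median log2 fold change of the members was 0.48 where the sense gene was called higher and -0.53 where it was called lower. Members and sense genes share their libraries, and where exons overlap they can share reads.

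Across 599 pairs the Spearman correlation of antisense and sense log2 fold changes was 0.22, and 0.21 over the 595 without a member at 0 in DMSO, given as a description. By arrangement it was 0.28 in 261 pairs that start head to head and overlap, 0.20 in 189 where one gene lies inside the other, 0.22 in 116 that overlap tail to tail and 0.08 in 30 that start head to head without overlap. By share of exon bases in exons of the other strand it was 0.03 at a share of 0 (116 pairs), 0.24 at 0 to 20%, 0.32 at 20 to 50%, 0.22 at 50 to 80% and 0.75 in 12 pairs at 80% or more. Without the members at 0 in DMSO that last value was 0.55 in 9 pairs. The calls were spread over the arrangements: 27 higher and 5 lower among 283 head-to-head overlapping members, 22 and 6 among 223 with one gene inside the other, and 7 and 4 among 132 tail-to-tail overlapping members (11.3%, 12.6% and 8.33% called, against 10.8% of all genes).

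**Figure D2:**
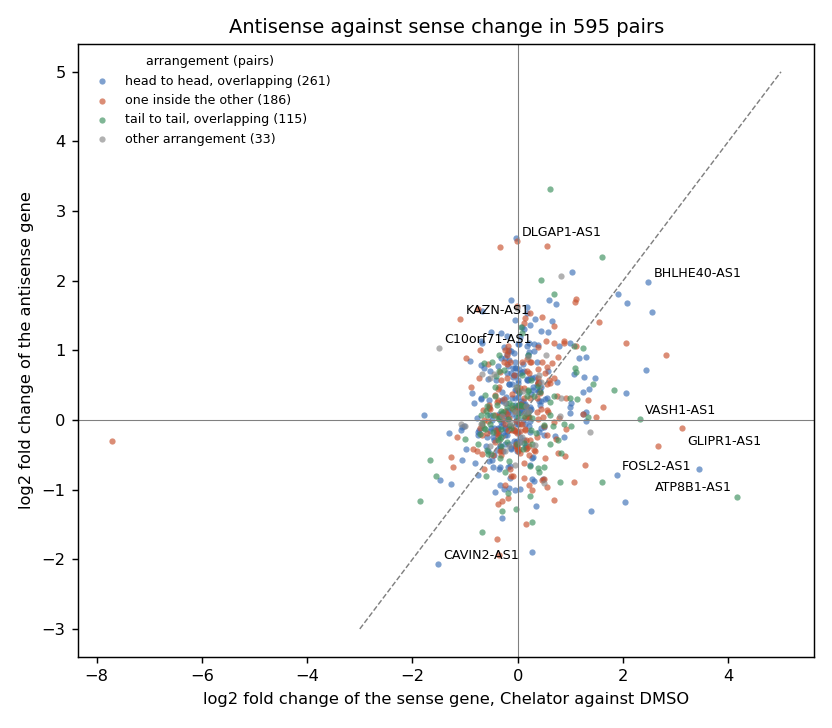
Fitted log2 fold change (Chelator against DMSO) of 595 antisense genes, vertical, against that of their sense genes, horizontal, colored by arrangement, with a dashed line of equal change. Points scatter widely around both axes (Spearman 0.21), with KAZN-AS1 up where KAZN fell and ATP8B1-AS1 down where ATP8B1 rose.

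Pairs in which both strands rose included 3 more that were named after their values were seen. MAP3K14-AS1 overlaps the gene of NIK, the kinase of noncanonical NF-κB signaling, and was at 618, 486 and 848 with DMSO and 1351, 1389 and 1251 with Chelator (1.04 ± 0.17, DESeq2 adjusted p = 5.87e-09), where MAP3K14 rose by 1.23 ± 0.11. LMNTD2-AS1 rose by 1.41 ± 0.17 and LMNTD2 by 1.54 ± 0.18. JDP2-AS1, at the gene of an AP-1 repressor, was at 19.1, 20.3 and 18.8 against 69.8, 43.0 and 58.8 (1.55 ± 0.46), and JDP2 rose by 2.55 ± 0.15. None of the 3 ratios was called. MAP3K14-AS1 was at 0.87 without DMSO replicate 2, under the fold limit.

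To ask whether the 2 strands changed by unequal amounts, the log2 ratio of antisense to sense counts was tested in limma over 3000 pairs of a lncRNA gene with a protein-coding gene on the other strand. A ratio was called at an adjusted p under 0.05 and a change beyond 1 on the log2 scale. Of the 599 member pairs, the ratio was called higher with Chelator in 43 (7.18%, against 6.60% of the 3000) and lower in 28 (4.67%, against 5.00%), and 86 members had no pair to test. The median change was 0.14 in the member pairs and in all pairs. The 71 calls fell to 35 without Chelator replicate 2 (18 higher, 17 lower) and to 27 without Chelator replicate 3 (18 higher, 9 lower), and the 43 higher calls to 28 without DMSO replicate 3.

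In some pairs with a higher ratio the strands went opposite ways. KAZN-AS1 starts inside KAZN, the gene of the desmosome-associated protein kazrin, and was at 362, 393 and 328 with DMSO and 997, 985 and 982 with Chelator (1.45 ± 0.13, DESeq2 adjusted p = 2.62e-29). KAZN went from 2916, 2848 and 2964 down to 1422, 1285 and 1385 (-1.09 ± 0.09, adjusted p = 1.24e-35), and the ratio rose by 2.55 ± 0.14 (limma adjusted p = 0.000871). None of the exon bases of KAZN-AS1 lies in exons of the other strand, and neither strand overlaps between groups.

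SLC9A3-AS1 and C10orf71-AS1, chosen after their values were seen, had the same opposition. SLC9A3-AS1, at a sodium-proton exchanger gene, was at 468, 386 and 369 against 756, 693 and 812 (0.89 ± 0.14) where SLC9A3 was at 1620, 1625 and 1704 against 894, 792 and 830 (-0.98 ± 0.10), a ratio change of 1.87 ± 0.16 (limma adjusted p = 0.00198). C10orf71-AS1 was at 23.9, 32 and 28.3 against 64.5, 54.7 and 52.5 (1.03 ± 0.42, DESeq2 adjusted p = 0.036). C10orf71 fell by 1.49 ± 0.35 on the log2 scale, a ratio change of 2.44 ± 0.39 (limma adjusted p = 0.00961). The length-corrected values of C10orf71 were 1825, 1732 and 857 against 504, 463 and 600. Its deposited counts fell less, from 1047, 1206 and 831 to 835, 682 and 635, so the sizes of its fall and of the ratio change depend on the length correction. The call of C10orf71-AS1 was lost without any 1 library except DMSO replicate 2 (adjusted p = 0.0651 to 0.126).

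Ratios also rose where the sense gene stayed or changed little. The ratio of L3MBTL2-AS1 rose by 2.77 ± 0.26 (limma adjusted p = 0.00211), with L3MBTL2 at -0.34 ± 0.08. The ratios of RUSC1-AS1 (1.86 ± 0.15), EPS15-AS1 (1.46 ± 0.18) and RAD21-AS1 (1.35 ± 0.25, opposite the cohesin subunit RAD21 and chosen after its values were seen) were called, with their sense genes at -0.13, 0.18 and 0.18. That of RAD21-AS1 was lost without Chelator replicate 2 or 3 (adjusted p = 0.0569 and 0.0624). The ratio of DLGAP1-AS1, at 2.30 ± 0.58 with an adjusted p of 0.0367, rests on a sense gene of few counts and was lost without any 1 library except DMSO replicate 1 (adjusted p = 0.0622 to 0.114).

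In several of the largest falls of the ratio, among pairs with a mean antisense count of at least 50, only the sense gene passed the test. GLIPR1-AS1 was at 143, 114 and 112 with DMSO and 138, 115 and 87.4 with Chelator, overlapping (-0.12 ± 0.28, DESeq2 adjusted p = 0.79), while GLIPR1 went from 33.7, 26.2 and 52.8 to 408, 288 and 277 (3.12 ± 0.29), a ratio change of -3.27 ± 0.31 (limma adjusted p = 0.00211). VASH1-AS1, at the gene of a tubulin carboxypeptidase, was at 306, 373 and 327 against 349, 304 and 363, while VASH1 went from 50.7, 75.5 and 99.5 to 482, 286 and 359 (ratio change -2.31 ± 0.27, adjusted p = 0.00345). The antisense values overlap between groups and the sense values do not. VASH1-AS1 has 56.6% of its exon bases in exons of the other strand, and its transcript VASH1-AS1-202, with 92.8% of the gene in DMSO and 90.8% in Chelator, shares 98.3% of its windows of 31 bases with transcripts of other genes, so its own level is uncertain.

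ATP8B1-AS1, at the gene of a phospholipid flippase, fell from 86.0, 89.5 and 89.7 to 60.6, 37.0 and 25.8 (-1.10 ± 0.39, DESeq2 adjusted p = 0.014). ATP8B1 was at 0.621, 16.2 and 0 with DMSO and 102, 48.1 and 126 with Chelator. The ratio changed by -6.53 ± 1.23 (limma adjusted p = 0.0144), a size set by the near-absent sense counts in DMSO. It was lost without Chelator replicate 3 (adjusted p = 0.0576), and the fall of ATP8B1-AS1 without DMSO replicate 3 or Chelator replicate 2 or 3 (adjusted p = 0.0543 to 0.0801). MMP25-AS1, at the gene of a membrane-bound metalloprotease, had a ratio change of -1.75 ± 0.31 (limma adjusted p = 0.013, and 0.0523 without Chelator replicate 3). It rests on a sense gene of few counts, with MMP25 at 12, 9.55 and 23 against 56.5, 55.6 and 76.5. The ratio of SLC41A3-AS1 changed by -1.94 ± 0.40 (adjusted p = 0.0196, and up to 0.069 without DMSO replicate 1 or Chelator replicate 2 or 3).

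**Figure D3:**
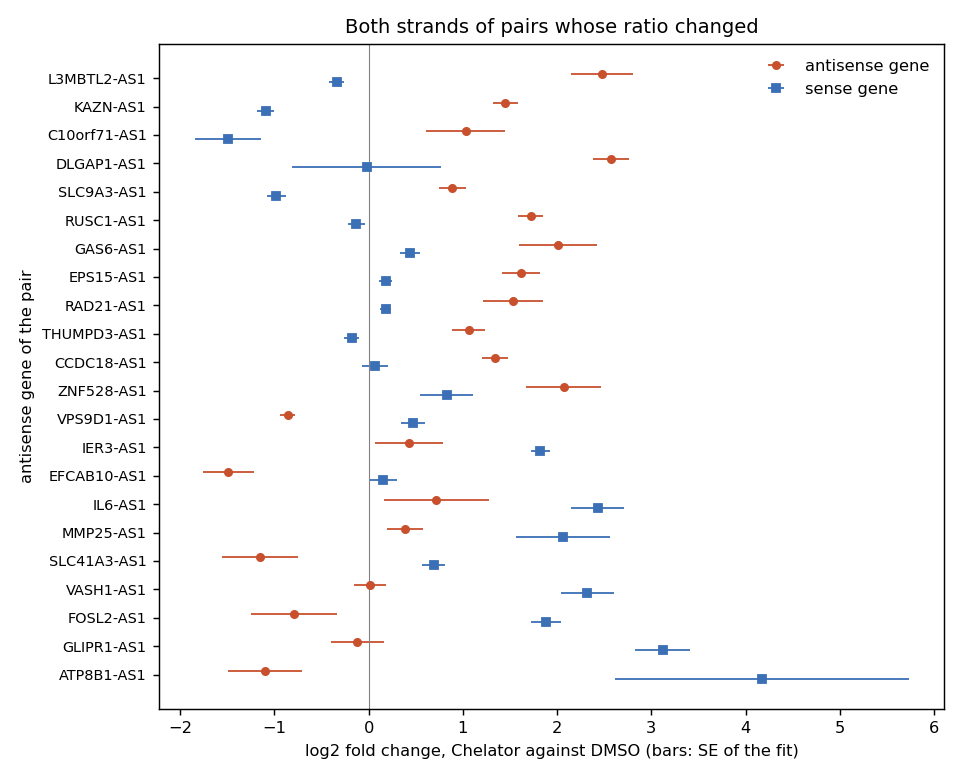
Log2 fold changes (Chelator against DMSO) of the antisense gene (circles) and the sense gene (squares) in 22 of the 71 member pairs whose ratio was called. These are the pairs of named members with counts in both groups, some of them chosen after their values were seen. Bars show the SE of the fit, and pairs are ordered by the ratio change. At the top the antisense gene is the higher of the 2, as in L3MBTL2-AS1 (2.48 against -0.34), and at the bottom the lower, as in GLIPR1-AS1 (-0.12 against 3.12).

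A group of members lay almost wholly inside exons of the other strand, and it held the most extreme values. In 13 members 80% or more of the exon bases are in opposite-strand exons, and in 136 none is. PHLDA1-AS1 (chr12:76030494-76031378, plus strand, 97.2%) lies opposite PHLDA1, an early response gene, and had 0 estimated counts in each DMSO library and 265.9, 241.5 and 185.7 with Chelator. Against a floor of 3 counts in each DMSO library it was at least 65.9-fold higher. PHLDA1 itself went from 120, 128 and 99.6 normalized counts to 6084, 4827 and 5069 (log2 fold change 5.52 ± 0.14).

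CHMP1B-AS1 (chr18:11851414-11852751, minus strand, 100%) lies opposite CHMP1B, a subunit of the ESCRT-III membrane machinery, and was without a count in the DMSO libraries but had 121.9, 142.1 and 126.3 with Chelator, at least 37-fold higher by the same floor. CHMP1B rose far less, from 1679, 1436 and 1517 to 2079, 2363 and 2388 (0.56 ± 0.10, DESeq2 adjusted p = 2.78e-07). SAPCD1-AS1 (89.2%), chosen after its values were seen, had 0 counts with DMSO and 71.3, 34.8 and 44.8 with Chelator, at least 14.6-fold higher. ITGB2-AS1, with a mean under 20, was the remaining member at 0 in a whole group, also DMSO. All 4 were called higher, and no member was at 0 in every Chelator library. The ratio was called higher in 3 of them, where its size depends on the 0.5 added to a count of 0. With 3 counts in each DMSO library the ratio change would be 0.31 for PHLDA1-AS1, short of the limit of 1, 4.45 for CHMP1B-AS1 and 3.05 for SAPCD1-AS1, so no unequal change is claimed for PHLDA1-AS1.

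An overlap of this kind did not go with a call in each case. Of the 13 members, 3 were called, against 10.8% of all genes. These 3 were at 0 in DMSO and reached the total of 60 through Chelator alone, and the other 10 had log2 fold changes from -0.45 to 1.14. GJD3-AS1, with 100% of its exon bases in exons of the other strand and chosen after its values were seen, was at 1098, 960 and 1020 against 1640, 1646 and 1830 (0.73 ± 0.10, DESeq2 adjusted p = 1.64e-11), without overlap. GJD3, the connexin gene opposite, changed by 0.38 ± 0.13. The only transcript of GJD3-AS1 with counts shares 98.8% of its windows of 31 bases with transcripts of other genes, so the level of GJD3-AS1 is uncertain. Whether reads of the sense genes were counted for these members was not tested.

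**Figure D4:**
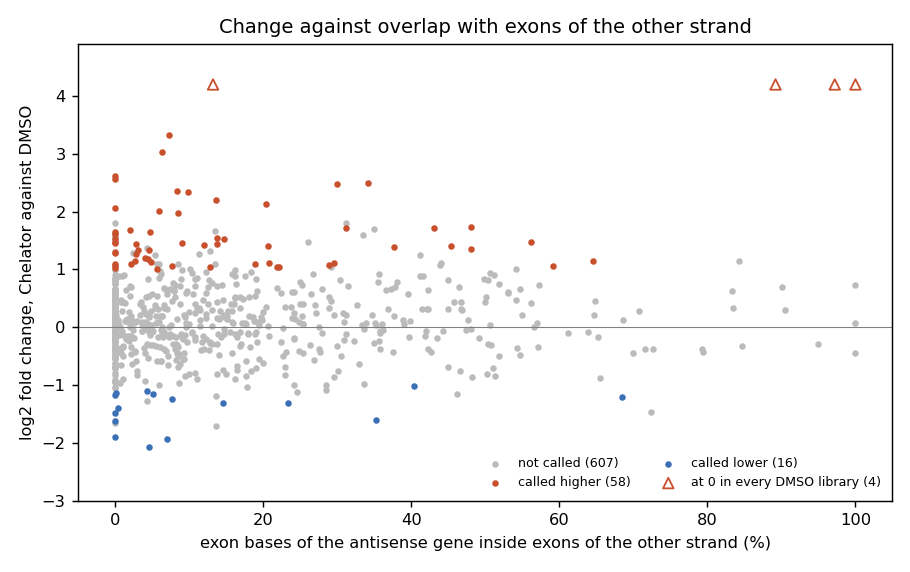
Log2 fold change (Chelator against DMSO) of 685 members against the percentage of their exon bases inside exons of the other strand, colored by call. The 4 members at 0 in every DMSO library are drawn as open triangles at a fixed height, since their fold has no upper limit, and 3 of them lie above 80% overlap.

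Antisense RNAs of early response and NF-κB genes gave 3 calls, of which 2 were lost when most single libraries were left out. A list of 56 such genes has 7 members opposite to them, of which 3 were called higher (PHLDA1-AS1, ID2-AS1 and SPRY4-AS1, against 8.18% of all genes), none lower and 4 did not pass, with a median of 0.72 against 0.02 over all genes. PHLDA1-AS1 reached the total of 60 through its Chelator counts alone. ID2-AS1, at the gene of an inhibitor of DNA binding, was at 61.2, 11.2 and 4.66 with DMSO and 58.0, 76.6 and 92.4 with Chelator, so 1 DMSO library overlaps the Chelator group (1.68 ± 0.68, DESeq2 adjusted p = 0.0362). SPRY4-AS1, at the gene of a Sprouty brake on ERK signaling, was at 26.8, 36.6 and 20.8 against 51.5, 65.7 and 58.0, without overlap (1.06 ± 0.43, adjusted p = 0.0384). Both calls were fragile: that of ID2-AS1 was kept only without DMSO replicate 1, and that of SPRY4-AS1 only without DMSO replicate 2 (otherwise adjusted p = 0.102 to 0.215 and 0.0607 to 0.152).

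The 4 others had sense genes with strong or no changes. FOSL2-AS1, at the gene of an AP-1 subunit, was at 60.7, 35.6 and 44 with DMSO and 29.0, 29.0 and 23.1 with Chelator (-0.79 ± 0.46, DESeq2 adjusted p = 0.174), while FOSL2 went from 161, 160 and 155 to 553, 637 and 567. The ratio changed by -2.63 ± 0.31 (limma adjusted p = 0.00359). The ratios of IL6-AS1 (-1.69 ± 0.39, adjusted p = 0.0285) and IER3-AS1 (-1.39 ± 0.33, adjusted p = 0.0308) were also called, with IL6 up by 2.43 ± 0.28 and IER3 by 1.82 ± 0.10 and the antisense RNAs not past the test (0.72 ± 0.56 and 0.43 ± 0.36). The ratio of IL6-AS1 passed only without DMSO replicate 2 when 1 library was left out, and that of IER3-AS1 only without DMSO replicate 3 or Chelator replicate 2 (otherwise adjusted p = 0.064 to 0.0958 and 0.0664 to 0.0856). SOCS2-AS1, opposite a STAT5 target, was at 303, 322 and 289 against 319, 350 and 377 (0.19 ± 0.16, adjusted p = 0.388), and SOCS2 at -0.045 ± 0.076.

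Few antisense RNAs of iron genes were measured. Of 21 genes of iron handling and the PCBP family, 3 have a member and none passed the test, by which 19.5% of all genes were higher and 18.3% lower (median -0.15, against 0.02 over all genes). PCBP1-AS1, at the gene of the iron chaperone and RNA-binding protein PCBP1, was at 938, 1262 and 1180 with DMSO and 1009, 1412 and 1108 with Chelator (0.06 ± 0.15, DESeq2 adjusted p = 0.799), with overlap between groups. PCBP1 was at 39128, 36297 and 39295 against 28644, 29959 and 31272 (-0.35 ± 0.07), and the ratio did not pass (0.41 ± 0.19, limma adjusted p = 0.178). STEAP3-AS1, at the gene of the ferrireductase of the transferrin cycle, held 10.8 to 45.0 counts and did not pass (-0.81 ± 0.67, adjusted p = 0.379), while STEAP3 fell by 1.56 ± 0.09 on the log2 scale. BACH1-AS1 had a mean under 20.

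Among 22 erythroid genes 2 have a member, of which 1 was lower, against 18.3% of all genes. GATA2-AS1, at the gene of a hematopoietic GATA factor, fell from 3426, 3488 and 3582 to 2704, 2598 and 2577 (-0.41 ± 0.08, DESeq2 adjusted p = 2.84e-07), with no overlap and short of the fold limit, and GATA2 was at -0.13 ± 0.07 (adjusted p = 0.14). The other, ZFPM1-AS1, had a mean under 20, and the median of the 2 was -0.34. Of 27 sterol and stress genes 3 have a member and none passed, against 19.5% of all genes higher and 18.3% lower, with a median of 0.42 against 0.02 over all genes. These were STARD4-AS1 (0.61 ± 0.43), where the sterol carrier gene STARD4 rose by 1.46 ± 0.07, SREBF2-AS1 (0.42 ± 0.34) and SLC7A11-AS1 (0.26 ± 0.53).

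Among 26 chromatin and transcription factor genes 10 have a member, of which 1 was higher, 1 lower and 8 did not pass (19.5% and 18.3% of all genes were higher and lower by this test), with a median of 0.17 against 0.02 over all genes. ZEB1-AS1, which starts beside the gene of the repressor ZEB1, was at 467, 251 and 268 with DMSO and 518, 830 and 545 with Chelator, without overlap (0.94 ± 0.24, DESeq2 adjusted p = 0.000448). With only little-shared transcripts it was at 0.29 (adjusted p = 0.109). KDM4A-AS1, at the gene of an iron-dependent histone demethylase, was at 411, 326 and 137 against 105, 167 and 197, with overlap (-0.89 ± 0.34, adjusted p = 0.0279). Its test was passed only without DMSO replicate 3 or Chelator replicate 3 when 1 library was left out (otherwise adjusted p = 0.0961 to 0.284), while KDM4A rose by 0.81 ± 0.07. The 8 that did not pass ran from -0.34 ± 0.22 for ZNF337-AS1 to 0.48 ± 0.22 for ZNF674-AS1, with JMJD1C-AS1, ZEB2-AS1, ZFHX2-AS1, ZFHX3-AS1, ZNF385D-AS1 and ZNF710-AS1 between them.

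A list of 32 antisense RNAs with a literature of their own holds 25 members, of which 6 were higher, 5 lower and 14 did not pass (19.5% and 18.3% of all genes were higher and lower by this test), with a median of 0.10 against 0.02 over all genes. CCDC18-AS1 rose from 431, 439 and 402 to 914, 1229 and 1079 (1.34 ± 0.14, DESeq2 adjusted p = 2.88e-20), with CCDC18 at 0.075 ± 0.14 and a ratio change of 1.24 ± 0.21 (limma adjusted p = 0.0122; 0.0501 without Chelator replicate 3). THUMPD3-AS1 rose from 1164, 941 and 716 to 1513, 2219 and 2143 (1.06 ± 0.17, adjusted p = 1.11e-08). Its log2 fold change was 0.89 without DMSO replicate 3, 0.96 without Chelator replicate 2 and 0.99 without Chelator replicate 3. Both sets of libraries are apart in these 2 RNAs.

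The list holds 2 antisense RNAs of the HOXB cluster of homeobox genes, of which 1 passed the test. HOXB-AS1 was at 94.6, 46.0 and 97.7 with DMSO and 131, 178 and 203 with Chelator (1.11 ± 0.33, DESeq2 adjusted p = 0.00258), and HOXB-AS3 at 103, 140 and 94.5 against 44.6, 67.1 and 88.5 (-0.76 ± 0.34, adjusted p = 0.0673). No value overlaps between groups in either. HOXB-AS1 was at 0.83 without DMSO replicate 2 and at 0.96 with an adjusted p of 0.052 without Chelator replicate 3.

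The falls in that list included VPS9D1-AS1, which went from 5329, 4692 and 4657 to 2782, 2707 and 2611 (-0.86 ± 0.08, DESeq2 adjusted p = 1.31e-22). VPS9D1 rose by 0.47 ± 0.13, a ratio change of -1.34 ± 0.13 (limma adjusted p = 0.00211). FOXD2-AS1, next to a forkhead gene, went from 2345, 2537 and 2432 to 1661, 1437 and 1589 (-0.64 ± 0.09, adjusted p = 6.11e-11). MCM3AP-AS1 went from 2384, 2764 and 2545 to 1791, 1779 and 1704 (-0.54 ± 0.09, adjusted p = 1.77e-08). The groups are apart in these 3 RNAs, none of which passed the fold limit. FGD5-AS1, at 44.7 TPM, was at 7941, 7097 and 7929 against 8292, 8461 and 9525 and did not pass (0.19 ± 0.08, adjusted p = 0.0548). HIF1A-AS3, TMPO-AS1, MAPKAPK5-AS1, PSMA3-AS1, SBF2-AS1, ST8SIA6-AS1, TTN-AS1 and LOXL1-AS1 did not pass either, with log2 fold changes from -0.25 to 0.30.

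The name of an antisense gene does not always give its place. In 3 members the named gene lies on the same strand, PYDC2-AS1, HILPDA-AS1 and FAM131B-AS2. FAM131B-AS2, chosen after its values were seen, rose from 234, 222 and 166 to 575, 604 and 621 (1.53 ± 0.17, DESeq2 adjusted p = 2.98e-18), and FAM131B, with a mean under 20, was called higher too. HILPDA-AS1, also chosen after its values were seen, was at 20.6, 17.7 and 26.0 against 17.2, 11.1 and 38.6, with overlap (0.06 ± 0.65, adjusted p = 0.962). It shares 95.1% of its sequence windows of 31 bases with transcripts of other genes. Over all members the median share of such windows was 14.8%, and 10 members have no annotated gene of the name before "-AS".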

How the data were processed

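PolyA RNA of K562 cells was measured in 6 libraries, grouped by the treatment in their labels. The authors quantified reads with Salmon 1.10.2 (submitters' processing notes), and the deposited files give estimated counts and TPM for 252045 transcripts, of which 251612 matched GENCODE v44 and 433 (0.139% to 0.15% of counts) did not. The build is hg38, and the annotation release used by the authors and the strand setting are not given in the sources used here. Estimated counts were summed per gene, rounded and tested with DESeq2 1.42.0 (R 4.3.3) over all genes with a total above 10, with average transcript length as an offset, so normalized counts are corrected for size and transcript length. Ratios of antisense to sense normalized counts (0.5 added to each) were tested with limma 3.58.1. P-values were adjusted by Benjamini-Hochberg over all genes or all 3000 pairs. Members, lists and motifs were chosen with earlier results of these data known. Genes were named for a sense gene in a list, for the 10 largest rises and 10 largest falls at a mean normalized count of at least 50 without overlap, for the 5 highest TPM, for the 5 largest called ratio changes in each direction at a mean antisense count of at least 50, or for the list of known antisense RNAs, and values are given from a mean of 20. Others are said to be chosen after their values were seen. Alternatives were TMM, edgeR 4.0.16, no offset, other filters, a replicate block, centring, little-shared transcripts (under 20% of windows of 31 bases shared with other genes), another pseudocount, a DESeq2 interaction and each library left out. The scripts were tested on simulated data. Floors are 3 counts in each library and cover counting error only.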

Additional observations from a re-analysis of the deposited data

How the results depend on the processing

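Of the members, 78 were called (62 higher, 16 lower). With 1 library left out the count ran from 62 to 90 (46 to 72 higher, 13 to 18 lower). Without the fold limit 172 passed, 121 higher and 51 lower. Centring on the mean gave 38 higher and 30 lower, and a total above 300 left 10 lower. Other settings stayed within 1.5 times. Of the 78 calls, 51 to 77 were shared with each alternative. The 51 is with little-shared transcripts, a setting that drops the others. A member with all its counts on dropped transcripts, such as TNFRSF10A-AS1, cannot be called there. The ratio was called in 71 pairs (43 higher, 28 lower), and with 1 library left out in 27 to 66 (18 to 43 higher, 9 to 25 lower). Whether replicate numbers pair the libraries is not settled. Same-number correlations were -0.004, 0.125 and 0.094, and those between unlike numbers ran from -0.124 to 0.046. With a replicate block 67 members were called (53 higher, 14 lower, 65 shared), and 50 ratios, 27 of them higher. OIP5-AS1 turned from 0.22 to -0.20 without the length offset and to -0.27 with little-shared transcripts, and PLXNB3-AS1 from -1.89 to 0.14 and 0.25, and the cause was not tested for OIP5-AS1. Of 661 values for 48 named genes, 597 kept their direction and their side of the limits and 60, in 15 genes, no longer passed them. Of 317 values for 25 ratios, 274 kept both and 43, in 12 ratios, no longer passed. Members of few counts limit what the depth can show.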
